A study of Mus musculus with 6 samples.

Results

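The oxidative phosphorylation genes of peritoneal macrophages were examined in FOXO3 KO and WT mice. They comprised 107 genes of the 54648 gene symbols listed, of which 31790 had a count in any library. Genes were taken by name: symbols that begin with Nduf, Uqcr, Atp5 or Cox4 to Cox8, the genes Sdha, Sdhb, Sdhc, Sdhd, Cyc1 and Cycs, and the protein-coding genes of the mitochondrial genome. Of 121 symbols matched, 9 pseudogene symbols and 5 genes with no count (Cox7b2, Cox8b, Cox8c, Ndufa11b and Ndufs6b) were dropped. Ndufb4c and Cox6c2, whose symbols do not mark them, are annotated as processed pseudogenes and were kept under the rule. The remaining genes comprised 94 nuclear and 13 mitochondrial genes. By complex, there were 52 for complex I (8 of them the assembly factors Ndufaf1 to Ndufaf8), 4 for complex II, 10 for complex III, 21 for complex IV, 19 for complex V and 1 for cytochrome c.

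RNA-seq was carried out on macrophages of C57BL/6 mice, 6 to 8 weeks old, collected from the peritoneal cavity 4 days after an injection of 3% thioglycollate, an irritant that both groups received. There were 3 libraries of WT mice, with both alleles of Foxo3, which encodes a forkhead transcription factor, and 3 of FOXO3 KO mice, homozygous for its loss. Mice were littermates of both sexes, and the methods name no cell type to which the loss of Foxo3 was limited. The labels do not say whether each library came from its own mouse, so p-values measure the spread between libraries, which may be technical. Libraries held between 28083393 and 36424117 counts, and levels are in CPM, that is counts relative to a library size corrected with the TMM factor of edgeR. In a bulk library, fewer cells of a type and less RNA per cell cannot be told apart.

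Foxo3 was read first as a check of the labels. Its level was 117 CPM in WT 1, 107 CPM in WT 2 and 73.1 CPM in WT 3, against 4.71 and 4.29 CPM in FOXO3 KO libraries 1 and 3. The library labelled FOXO3 KO 2 had 104 CPM, within the range of WT, and goes against its label. WT 3 stood apart from the other libraries: its correlation with each of them across genes was 0.917 to 0.951, against 0.980 to 0.990 among the other 5. In WT 3 the 8 B cell markers summed to 5739 CPM, against 299 to 1420 CPM elsewhere. Markers of macrophages, 12 genes such as Adgre1, summed to between 15109 and 19857 CPM in every library. Results below are given over all 6 libraries and then without the library labelled FOXO3 KO 2 or without WT 3.

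Oxidative phosphorylation passes electrons from nutrients to oxygen along a chain of complexes in the inner mitochondrial membrane. Complex I takes electrons from NADH and complex II from succinate, ubiquinone carries them to complex III, cytochrome c carries them on to complex IV, and complex V, the ATP synthase, uses the proton gradient to make ATP. The subunits are encoded by both the nuclear and the mitochondrial genome, so that both must be expressed to build complexes I, III, IV and V, whereas complex II is encoded by the nucleus alone. In macrophages the pathway is known for its part in alternative activation, while classical activation relies more on glycolysis.

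Promoters of these genes are known for binding sites of NRF1 and of the ETS factor GABPA. Sequences are shown for Cycs, the gene with the smallest unadjusted p in the test described below. They are also shown for an abundant subunit each of complexes II, III and V, to show how far their control regions differ. The 250 bases before the start of transcription are from RefSeq on GRCm38.p6, 5′ to 3′ on the strand of the gene, with matches to the searched words in capitals.
Cycs, chr6:50566570-50566819, minus strand: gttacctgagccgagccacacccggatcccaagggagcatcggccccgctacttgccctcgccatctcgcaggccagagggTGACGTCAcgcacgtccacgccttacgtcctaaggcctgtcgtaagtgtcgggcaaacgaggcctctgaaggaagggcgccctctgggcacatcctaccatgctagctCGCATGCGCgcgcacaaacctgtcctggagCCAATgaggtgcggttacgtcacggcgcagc
Sdha, chr13:74350241-74350490, minus strand: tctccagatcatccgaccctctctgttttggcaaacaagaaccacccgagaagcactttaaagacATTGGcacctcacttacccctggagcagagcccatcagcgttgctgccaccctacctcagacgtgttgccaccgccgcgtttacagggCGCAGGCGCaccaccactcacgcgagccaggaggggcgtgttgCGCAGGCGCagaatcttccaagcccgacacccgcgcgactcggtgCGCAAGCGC
Uqcrh, chr4:116075071-116075320, minus strand: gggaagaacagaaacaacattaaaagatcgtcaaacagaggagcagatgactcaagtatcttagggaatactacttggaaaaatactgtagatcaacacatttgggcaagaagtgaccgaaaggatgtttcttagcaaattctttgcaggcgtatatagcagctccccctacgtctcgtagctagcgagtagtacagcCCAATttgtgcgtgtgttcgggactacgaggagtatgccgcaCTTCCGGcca
Atp5b, chr10:128083057-128083306, plus strand: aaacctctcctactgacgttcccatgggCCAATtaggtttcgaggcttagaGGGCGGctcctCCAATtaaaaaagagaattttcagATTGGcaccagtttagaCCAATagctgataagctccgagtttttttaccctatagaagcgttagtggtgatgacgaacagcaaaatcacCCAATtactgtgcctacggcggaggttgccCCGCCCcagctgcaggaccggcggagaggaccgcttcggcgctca

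Words were searched on both strands of 78 windows that matched 73 of the 94 nuclear genes by symbol, each window holding 250 bases before and 50 after the start. None of the words contains another. The NRF1 word CGCANGCGC was found in 27 windows (34.6%), against 6.31% of the 32851 windows of all genes and 12.2% of the windows of genes tested here. With a further G in front it was found in 20 windows (25.6%), against 4.60% of all windows and 9.20% of windows of tested genes, and no longer in that of Cycs. The GABPA word CCGGAAG was found in 18 windows (23.1%), against 8.86% of all windows and 16.5% of windows of tested genes. The CREB word TGACGTCA was found in 5 windows (6.41%), those of Cycs, Ndufa10, Ndufa11, Ndufb2 and Uqcrfs1, against 1.79% of all windows and 2.81% of windows of tested genes. The FoxO word GTAAACA was found in 2 windows (2.56%), of Cox7a2 and Ndufaf1, against 3.65% of all windows and 2.64% of windows of tested genes. The SP1 word GGGCGG and the CCAAT box (CCAAT) were each found in 34 windows (43.6%), against 35.7% and 37.4% of all windows and 59.1% and 37.5% of windows of tested genes, and the E-box CACGTG in 6 (7.69%), against 7.15% of all windows and 9.67% of windows of tested genes. Of the promoters shown, that of Sdha holds 3 matches to the NRF1 word, that of Uqcrh holds the GABPA word 10 bases before the start, that of Cycs holds the CREB word 169 bases, the NRF1 word 61 bases and a CCAAT box 31 bases before the start, and that of Atp5b holds 5 CCAAT boxes. A match describes the letters only, and no binding was measured.

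The question for these genes was whether their mRNA differed between FOXO3 KO and WT macrophages. None of the 104 genes that had enough counts to be tested differed at an FDR of 0.05 (edgeR quasi-likelihood test, smallest adjusted p = 0.821), nor did any of all 15608 genes tested (0% called). Foxo3 itself was thus not called, nor was it without the library labelled FOXO3 KO 2 (0 of 16217 genes called). The lack of a call therefore does not show the lack of a difference. Cox4i2, Cox6c2 and Ndufa4l2 were not tested. At an unadjusted p under 0.05, 2 of the 104 genes (1.92%) were higher in FOXO3 KO, Cycs and Cox6a2, and 0 were lower, against 4.04% of all genes higher and 1.65% lower. Without the library labelled FOXO3 KO 2 none of the 104 genes passed an unadjusted p of 0.05 (4.30% of all genes did), and without WT 3 there were 4 of 105, Cycs, Cox6a2, Ndufa4l2 and mt-Nd4l (8.41% of all genes). Other tools also called 0 of the 104 genes at an FDR of 0.05, while the likelihood ratio test of edgeR called 109 of all genes (0.698%), DESeq2 called 129 (0.829%) and limma-voom called 0 (0%).

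The intervals were narrow for most of these genes. For 86 of 104 genes (82.7%), the 95% interval of the log2 fold change, FOXO3 KO over WT, lay within a 1.5-fold change in either direction, against 37.2% of all genes tested. The median half-width of the interval was 0.36 on the log2 scale, against 0.57 over all genes. Without the library labelled FOXO3 KO 2, this number was 56 of 104 (53.8%, against 25.5% of all genes), and without WT 3 it was 95 of 105 (90.5%, against 53.9%). Such intervals were not particular to these genes. Over all 6 libraries they were found for 73 of 78 mitochondrial ribosomal protein genes (93.6%) and 13 of 14 tricarboxylic acid cycle enzymes (92.9%). They were found for 14 of 19 regulators of mitochondrial transcription and biogenesis (73.7%).

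**Figure D1:**
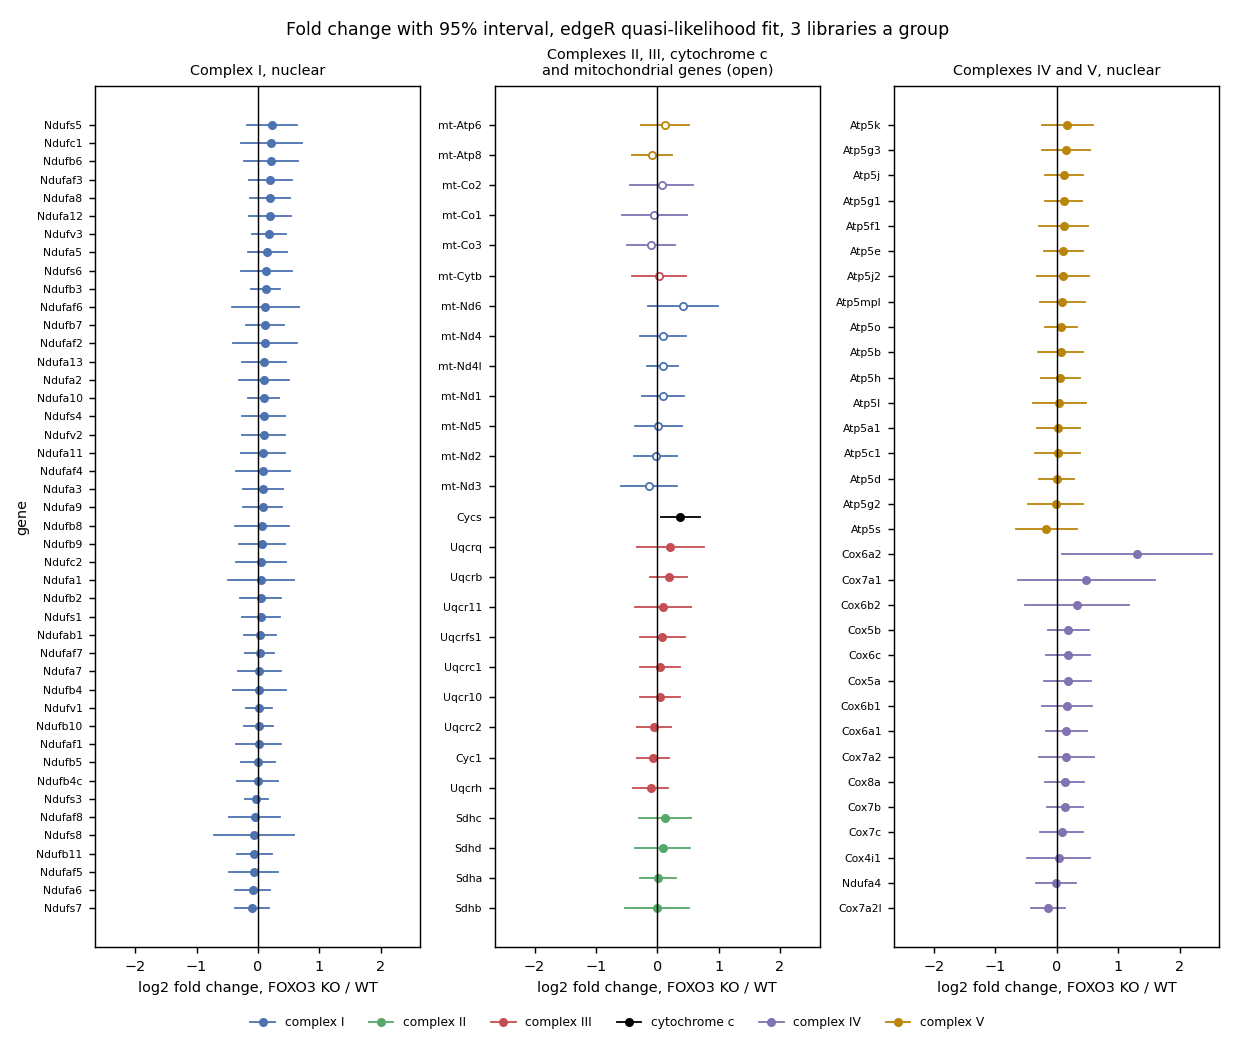
Log2 fold change of FOXO3 KO over WT for 103 of the 104 genes tested, with the 95% interval of edgeR's quasi-likelihood fit to 3 libraries a group, coloured by complex; open points are mitochondrial genes. The intervals of Cycs and Cox6a2 lie above 0 and all others shown include it.

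The fold changes were small and leaned to higher values in FOXO3 KO. The median log2 fold change was 0.08 over the 104 genes, of which 81 (77.9%) were above 0, against a median of -0.01 and 48.8% above 0 over all genes tested. Without the library labelled FOXO3 KO 2 the median was 0.07 and 78 of 104 were above 0 (75.0%, against 47.6% of all genes). Without WT 3 the median was 0.00 and 56 of 105 were above 0 (53.3%, against 50.7% of all genes), and without both libraries 50 of 104 were above 0 (48.1%, against 48.5%), with 0 of the 104 genes and 0.0256% of all genes called. The lean was therefore not seen once WT 3 was left out. It also depended on other libraries: without WT 2 the median was 0.18 and 92 of 105 were above 0, against 51.1% of all genes, and without FOXO3 KO 1 it was 0.02 and 65 of 105 were above 0, against 46.5% of all genes. Without WT 1, 76 of 105 were above 0, against 48.9% of all genes, and without FOXO3 KO 3, 86 of 104, against 50.2%. With a covariate for the libraries with high Xist, WT 3 and FOXO3 KO 3, the median was 0.09 and 84 of 104 were above 0. The median over all genes was 0.01 in that fit. With this covariate and without the library labelled FOXO3 KO 2 the median was 0.12, with 87 of 104 above 0, against 0.00 over all genes.

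The nuclear genes moved together from library to library. Their levels summed to 6379 CPM in WT 1, 7461 CPM in WT 2 and 5542 CPM in WT 3, and to 7133, 6797 and 6273 CPM in FOXO3 KO 1 to 3. The highest and the lowest sum were both in WT, and the FOXO3 KO libraries lay between them. WT averaged 6461 ± 962 CPM and FOXO3 KO averaged 6734 ± 434 CPM (SD, n = 3 each). Gene by gene, 69 of 91 nuclear genes tested (75.8%) had their lowest level in WT 3, against 37.5% of all genes, and 74 of 91 (81.3%) ran from WT 2 through WT 1 to WT 3 in descending order, against 30.2% of all genes. Among the FOXO3 KO libraries, 75 of 91 (82.4%) were highest in FOXO3 KO 1, against 33.4% of all genes. This was not particular to them. It held for 65 of 78 mitochondrial ribosomal protein genes (83.3%) and 11 of 14 tricarboxylic acid cycle enzymes (78.6%). Of 19 regulators of mitochondrial transcription and biogenesis it held for 3. In FOXO3 KO 3, 80 of the 91 nuclear genes were the lowest of the FOXO3 KO libraries, against 5459 of all 15608 genes. WT 3 and FOXO3 KO 3 were also the libraries with high Xist, and what set them apart was not tested.

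Sums of B cell, T cell, dendritic cell, eosinophil and striated muscle markers ran in the opposite order. Those of NK cell and brown fat markers ran in the same order, and those of the other lists in neither. Single markers did not always follow their sum. Of the 3 eosinophil markers tested, 2 were lowest in WT 3, as most nuclear genes were. Only 2 striated muscle markers were tested, of which 1 was highest in WT 1, and that list summed to at most 2.82 CPM. The 8 B cell markers summed to 1420 CPM in WT 1, 726 CPM in WT 2 and 5739 CPM in WT 3, and to 299, 630 and 1285 CPM in FOXO3 KO 1 to 3. Within each group the libraries with more B cell marker RNA had a lower sum of nuclear oxidative phosphorylation mRNA, all 8 markers were highest in WT 3 and lowest in FOXO3 KO 1, and none was at 0. The T cell markers, at 29.8, 28.7 and 128 CPM in WT 1 to 3 and 18.9, 26.9 and 49.5 CPM in FOXO3 KO 1 to 3, had the same order of sums as the B cell markers, and all 8 were highest in WT 3. The dendritic cell markers also had this order of sums, at 62.3, 48.6 and 172 CPM in WT and 61.3, 84.7 and 105 CPM in FOXO3 KO. Of these 7 markers, however, only 1 was highest in WT 3, 3 were lowest there and 5 were highest in FOXO3 KO 3. The 6 mast cell markers were all highest in WT 3, where they summed to 780 CPM, against 99.9 to 293 CPM elsewhere. WT 3 thus stood apart in the markers of B cells, T cells and mast cells. The sum of the 6 NK cell markers ran in the same order as that of the nuclear genes. It was 22.0, 42.3 and 15.4 CPM in WT 1 to 3 and 32.8, 31.2 and 30.4 CPM in FOXO3 KO 1 to 3. All 6 were highest in WT 2 and 5 were lowest in WT 3. Among the FOXO3 KO libraries, however, only 2 were highest in FOXO3 KO 1 and 3 were lowest in FOXO3 KO 3. The sum of the 6 brown fat markers, of which only 1 was tested, also ran in this order. It was 84.0, 151 and 30.4 CPM in WT and 78.4, 75.9 and 29.1 CPM in FOXO3 KO. The macrophage markers summed to 17048, 19857 and 15109 CPM in WT 1 to 3 and to 17193, 18732 and 16712 CPM in FOXO3 KO 1 to 3. None of the 107 genes is in a marker list, and the part of these markers in the result was not tested.

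**Figure D2:**
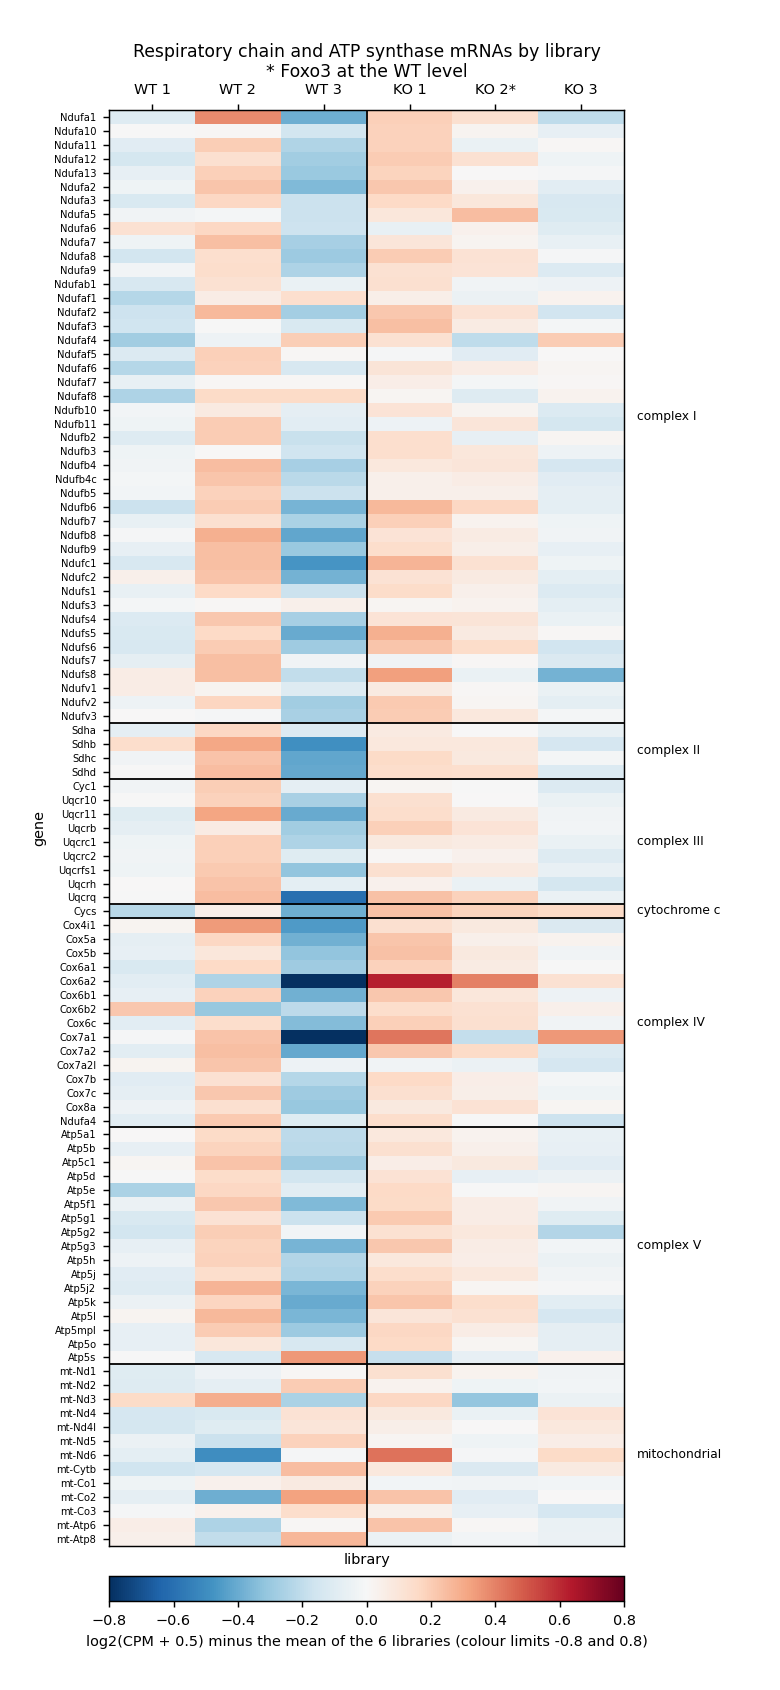
Level of 103 of the 104 tested genes in each library, as log2(CPM + 0.5) minus the mean of the 6 libraries, with nuclear genes by complex and mitochondrial genes at the bottom; red is above and blue below the mean, and the colours stop at -0.8 and 0.8. The column of WT 3 is blue for most nuclear genes and that of WT 2 red, while the mitochondrial genes are mostly red in WT 3.

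The mitochondrial genes did not share this order. They summed to 10456 CPM in WT 1, 10455 CPM in WT 2 and 11811 CPM in WT 3, and to 11289, 10583 and 10829 CPM in FOXO3 KO 1 to 3. Of the 13 genes, 9 (69.2%) were highest in WT 3, against 37.2% of all genes tested. In that library 69 of the 91 nuclear genes were lowest, against 37.5% of all genes. WT averaged 10907 ± 783 CPM and FOXO3 KO averaged 10900 ± 359 CPM (SD, n = 3 each), and the groups overlapped. Their share of all counts was 1.10% ± 0.17 in WT and 1.08% ± 0.04 in FOXO3 KO (SD, n = 3 each). For each count in a nuclear gene of the pathway there were 1.64, 1.40 and 2.13 counts in a mitochondrial gene in WT 1 to 3 and 1.58, 1.56 and 1.73 in FOXO3 KO 1 to 3. The median log2 fold change of the 13 genes was 0.02, with 8 above 0. It was 0.085 without the library labelled FOXO3 KO 2 and 0.13 without WT 3, with 10 of 13 above 0.

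Per length, the 13 mitochondrial genes spanned a wide range although the mRNAs of the heavy strand are cut from a single precursor. The level was taken as TPM, counts per length of the transcript scaled to the same total in every library, as a mean over the 6 libraries with the lowest and highest library. The full length was used, without a correction for the length of reads or fragments. Levels of short genes, such as mt-Atp8 (204 bases), mt-Nd4l (297 bases) and mt-Nd3 (348 bases), are less certain for this reason. The highest was mt-Co1, the core catalytic subunit of complex IV, at 3622 TPM (3424 to 4152), followed by mt-Co3, another core subunit of complex IV, at 2545 TPM (2365 to 3056). They were followed by mt-Atp6, the proton channel subunit of complex V, at 1672 TPM (1294 to 1883), mt-Nd1, a core subunit of complex I, at 1422 TPM (1272 to 1564), and mt-Cytb, the cytochrome b of complex III, at 1380 TPM (1150 to 1771), whose ranges overlap. The complex I subunits mt-Nd4 at 1063 TPM, mt-Nd2 at 957 TPM and mt-Nd5 at 791 TPM, the complex IV subunit mt-Co2 at 951 TPM and the complex V subunit mt-Atp8 at 751 TPM also had overlapping ranges. Below them were mt-Nd4l at 553 TPM (475 to 645), whose range overlaps those of mt-Nd5 and mt-Atp8, and mt-Nd3 at 354 TPM (277 to 397), whose range overlaps with none. mt-Nd6, the only protein-coding gene on the light strand, was at 16.3 TPM, with at most 21.4 TPM in any library, below all others in every library. Estimated counts of mt-Co1, mt-Co2, mt-Co3, mt-Atp6, mt-Atp8 and mt-Nd3 are not whole numbers, as values are where reads are shared between features, and may depend on that sharing.

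Some mitochondrial genes overlap, and reads in the overlap belong to both. mt-Atp8 and mt-Atp6 share 43 bases, shown here from GENCODE M21 on GRCm38 with the start codon of mt-Atp6 in capitals.
mt-Atp8 and mt-Atp6, chrM:7927-7969, plus strand: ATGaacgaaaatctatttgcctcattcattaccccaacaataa
The end of mt-Nd4l and the start of mt-Nd4 share 7 bases, and mt-Nd5 and mt-Nd6, on opposite strands, share 14 (chrM:13552-13565). Reads of 76 bp cannot all be assigned to a single member of such a pair, and their levels are uncertain to that extent.

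mt-Nd6 (chrM:13552-14070, minus strand, a single coding exon) was the mitochondrial gene with the largest log2 fold change. Its level was 5.12, 3.71 and 5.40 CPM in WT 1 to 3 and 7.51, 5.40 and 6.09 CPM in FOXO3 KO 1 to 3, from 105 to 212 counts a library. The groups did not overlap, but WT 3 and the library labelled FOXO3 KO 2 were equal to 3 digits. The log2 fold change was 0.42 (95% interval -0.15 to 0.99, adjusted p = 0.843, edgeR quasi-likelihood test). The exact two-sided permutation test gave p = 0.1, the smallest that 3 libraries against 3 allow. This value is fixed where groups do not overlap and adds nothing to that. Without the library labelled FOXO3 KO 2 the log2 fold change was 0.52, and without WT 3 it was 0.53. It was 0.27 without WT 2 and 0.28 without FOXO3 KO 1. mt-Nd5 overlaps its end on the opposite strand, and the sources used here do not say whether counting used the strand.

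**Figure D3:**
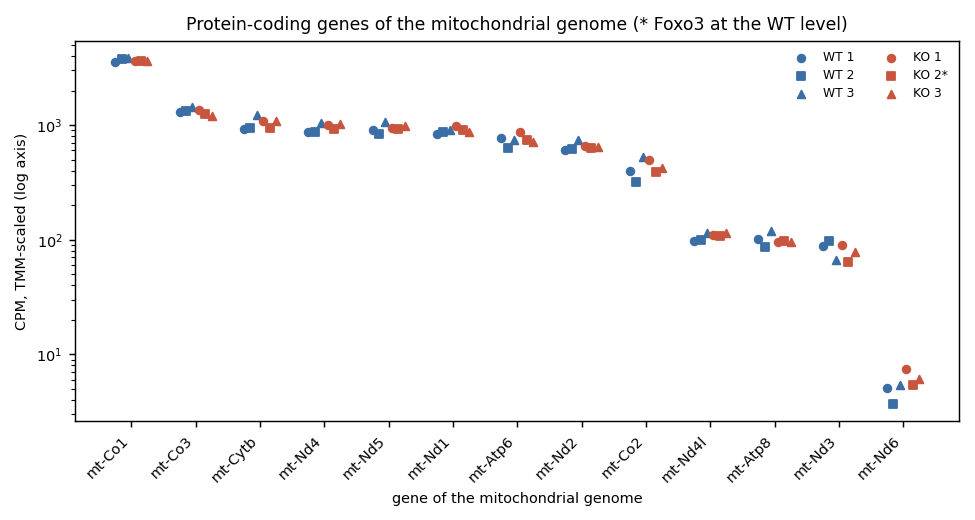
CPM of the 13 mitochondrial genes in each library, on a log axis, ordered by mean CPM (not per length); circles, squares and triangles are replicates 1, 2 and 3, WT in blue and FOXO3 KO in red. Libraries of both groups interleave for each gene except mt-Nd6, where the FOXO3 KO libraries are at or above the highest WT library.

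Groups did not overlap for 3 of the 104 genes, Cycs, Cox6a2 and mt-Nd6, all with the FOXO3 KO libraries higher, against 7.00% of all genes tested, and for 0 with FOXO3 KO lower, against 5.36%. Without the library labelled FOXO3 KO 2 these 3 and Cox7a1 did not overlap (11.0% of all genes higher and 9.23% lower). Without WT 3 there were 10 of 105 genes higher (13.5% of all genes), among them mt-Cytb, mt-Nd1, mt-Nd2, mt-Nd4, mt-Nd4l, mt-Nd5 and mt-Nd6, and 4 lower (11.9% of all genes), among them Cox7a2l, Ndufa6 and Sdhb.

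Cycs (chr6:50562563-50566538, minus strand) encodes somatic cytochrome c, which carries electrons from complex III to complex IV and takes part in apoptosis when released from mitochondria. Its level was 34.3 CPM in WT 1, 41.5 CPM in WT 2 and 30.4 CPM in WT 3, and 47.3, 45.5 and 44.7 CPM in FOXO3 KO 1 to 3. Each FOXO3 KO library, including replicate 2 with its WT level of Foxo3, was above each WT library. WT averaged 35.4 ± 5.61 CPM and FOXO3 KO averaged 45.8 ± 1.33 CPM (SD, n = 3 each). The log2 fold change was 0.37 (SE 0.13, 95% interval 0.06 to 0.69) with an adjusted p of 0.821 over all genes (edgeR quasi-likelihood test). It was 0.38 (adjusted p = 0.994) without the library labelled FOXO3 KO 2 and 0.29 (adjusted p = 0.540) without WT 3. The exact two-sided permutation test gave p = 0.1, the smallest possible, and p = 0.2, again the smallest possible, without the library labelled FOXO3 KO 2. Both values are fixed where groups do not overlap and add nothing to that. Cycs has processed pseudogenes, and its estimated counts are not whole numbers, so that its value may depend on how reads were shared between them.

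The summed markers of 3 other cell types were also higher in every FOXO3 KO library than in any WT library. Single markers were less uniform. The FOXO3 KO libraries were all above WT for 3 of 7 neutrophil, 4 of 5 fibroblast and 4 of 5 mesothelial markers tested, against 7.00% of all genes. One neutrophil marker was highest in WT 1 and 1 mesothelial marker in WT 3. The 12 neutrophil markers summed to 80.3, 86.1 and 21.5 CPM in WT 1 to 3 and to 344, 91.7 and 262 CPM in FOXO3 KO 1 to 3. The 6 fibroblast markers summed to 75.7, 53.0 and 40.9 CPM in WT and to 93.5, 482 and 169 CPM in FOXO3 KO, and the 6 mesothelial markers to 6.32, 5.58 and 11.1 CPM in WT and to 11.3, 40.8 and 16.5 CPM in FOXO3 KO. Cycs was at 44.7 to 47.3 CPM in the FOXO3 KO libraries, and the part of these cell types in its level was not tested.

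**Figure D4:**
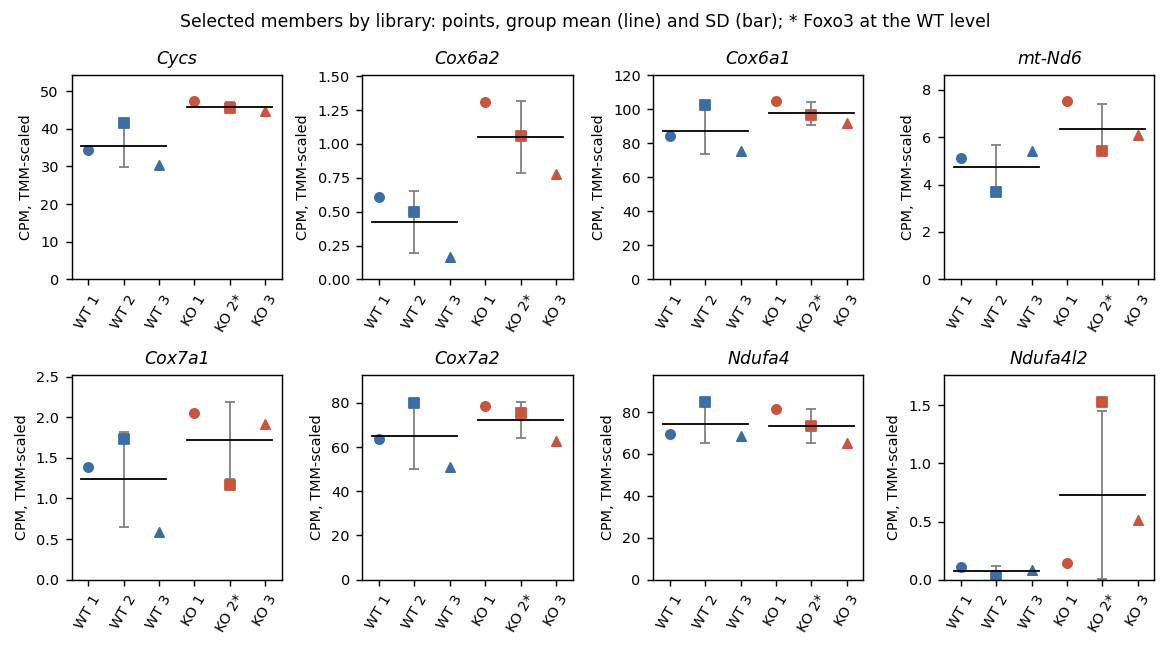
CPM of 8 genes in each library, with the mean of each group as a line and the SD (n = 3) as a bar. For Cycs, Cox6a2, mt-Nd6 and Ndufa4l2 the FOXO3 KO libraries lie above the WT libraries. However, mt-Nd6 is at 5.40 CPM in both WT 3 and KO 2, and Ndufa4l2, not tested over the 6 libraries, has 4 counts in both WT 1 and KO 1. For Cox6a1, Cox7a1, Cox7a2 and Ndufa4 the groups overlap.

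Complex I takes electrons from NADH and is the largest of the complexes. Its 45 nuclear genes had a median log2 fold change of 0.07, with 36 above 0, and of 0.00 without WT 3, with 24 above 0. The nuclear core subunits (such as Ndufs1, Ndufs7 and Ndufv1), which bind NADH and carry the iron-sulphur clusters, had a median of -0.02, with 3 of 7 above 0. The 30 accessory subunits, which surround the core, had a median of 0.08, with 27 of 30 above 0, and 16 of 30 without WT 3. They include the processed pseudogene Ndufb4c, which was among the 3 that were not above 0. Their summed level was 1227, 1436 and 1069 CPM in WT 1 to 3 and 1394, 1329 and 1209 CPM in FOXO3 KO 1 to 3, so that the groups overlapped. The largest log2 fold changes of nuclear complex I genes were those of the accessory subunits Ndufs5 (0.23, 95% interval -0.18 to 0.64), Ndufc1 (0.22) and Ndufb6 (0.22), and the lowest was that of the core subunit Ndufs7 (-0.10, 95% interval -0.37 to 0.18). Ndufa6, an accessory subunit with an LYR motif, was at 68.4, 70.4 and 55.9 CPM in WT 1 to 3 and at 60.3, 64.4 and 58.8 CPM in FOXO3 KO 1 to 3, and its groups were apart once WT 3 was left out.

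The assembly factors Ndufaf1 to Ndufaf8, which help to build complex I but are not part of it, showed another order among libraries. Of 8, 7 were lowest in WT 1 and 1 in WT 3, whereas 32 of the 45 nuclear genes of complex I were lowest in WT 3. Their summed level was 74.3, 89.0 and 86.7 CPM in WT 1 to 3 and 90.6, 82.0 and 86.6 CPM in FOXO3 KO 1 to 3. Their median log2 fold change was 0.06 over all libraries and 0.07 without WT 3. Ndufaf4 was at 13.3, 15.8 and 18.7 CPM in WT and at 17.8, 14.1 and 18.8 CPM in FOXO3 KO, with a log2 fold change of 0.08 (95% interval -0.36 to 0.52).

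Complex II, succinate dehydrogenase, links the tricarboxylic acid cycle to the chain. All 4 genes were highest in WT 2 and lowest in WT 3, which held for 42 of the 91 nuclear genes tested (46.2%) and 14.1% of all genes. Sdha, the flavoprotein that oxidises succinate, was at 218, 257 and 213 CPM in WT 1 to 3 and at 242, 230 and 220 CPM in FOXO3 KO 1 to 3. Sdhb, the iron-sulphur subunit, was at 107, 120 and 68.8 CPM in WT and at 103, 103 and 88.4 CPM in FOXO3 KO. The FOXO3 KO libraries lay within the range of WT for both. The log2 fold changes were 0.01 for Sdha, -0.01 for Sdhb, 0.12 for Sdhc and 0.09 for Sdhd, the last 2 being the membrane anchors. All 4 were below 0 without WT 3, where the median was -0.04, against 0.05 over all libraries.

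Complex III passes electrons from ubiquinol to cytochrome c. Its 10 genes had a median log2 fold change of 0.05, with 7 above 0, and of -0.05 without WT 3, with 3 above 0. Cyc1, the cytochrome c1 that hands electrons to cytochrome c, was at 63.7, 74.4 and 61.8 CPM in WT 1 to 3 and at 65.8, 64.7 and 60.1 CPM in FOXO3 KO 1 to 3, with a log2 fold change of -0.07 (95% interval -0.33 to 0.19). Cyc1 and its partner Cycs ran in the same order of libraries within each group. Within WT this was the order of 74 of the 91 nuclear genes tested. The groups overlapped for Cyc1 but not for Cycs. Uqcrq, a small accessory subunit, varied widely between WT libraries, at 47.5, 56.6 and 31.1 CPM, against 56.2, 54.1 and 45.9 CPM in FOXO3 KO. Uqcrh, the hinge protein, was at 113, 132 and 107 CPM in WT and at 115, 109 and 102 CPM in FOXO3 KO (log2 fold change -0.11, 95% interval -0.39 to 0.18).

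Complex IV, cytochrome c oxidase, reduces oxygen. Its 18 genes tested had the highest median of the complexes, 0.14, with 14 above 0, which was 0.06 without WT 3, with 13 of 19 above 0. The 12 nuclear subunits that are not tissue isoforms summed to 1257, 1495 and 1064 CPM in WT 1 to 3 and to 1425, 1350 and 1238 CPM in FOXO3 KO 1 to 3, so that the groups overlapped. Cox4i1, the ubiquitous form of subunit 4, was at 228, 285 and 164 CPM in WT, against 246, 237 and 207 CPM in FOXO3 KO. Ndufa4, which was first assigned to complex I and is a subunit of complex IV, was at 69.5, 85.0 and 68.6 CPM in WT and at 81.3, 73.6 and 65.4 CPM in FOXO3 KO (log2 fold change -0.02, 95% interval -0.34 to 0.31). Cox7a2l, which takes part in joining complexes III and IV into supercomplexes, was at 222, 255 and 212 CPM in WT and at 214, 212 and 199 CPM in FOXO3 KO, with a log2 fold change of -0.14 (95% interval -0.42 to 0.14).

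Tissue isoforms of complex IV were near the limit of detection. Cox6a2, the heart and muscle form of subunit 6a (chr7:128205435-128206387, minus strand), had 22, 14 and 6 counts in WT 1 to 3 and 37, 29 and 26 counts in FOXO3 KO 1 to 3. WT averaged 0.424 ± 0.229 CPM and FOXO3 KO averaged 1.05 ± 0.266 CPM (SD, n = 3 each), and the groups did not overlap. The log2 fold change was 1.30 (95% interval 0.08 to 2.52) with an adjusted p of 0.839 (edgeR quasi-likelihood test), and 0.92 without WT 3. The exact permutation test gave p = 0.1, the smallest possible, which is fixed where groups do not overlap. Cox6a1, the ubiquitous form, was at 84.4, 103 and 75.4 CPM in WT and at 105, 96.5 and 91.7 CPM in FOXO3 KO, with a log2 fold change of 0.16 (95% interval -0.18 to 0.50). Markers of striated muscle summed to between 1.59 and 2.82 CPM in all libraries, in which 1 of 6 markers had no count at all.

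Cox7a1, the muscle and brown fat form of subunit 7a, had 50, 49 and 21 counts in WT 1 to 3 and 58, 32 and 64 counts in FOXO3 KO 1 to 3 (log2 fold change 0.48, 95% interval -0.64 to 1.60). With a single library left out its log2 fold change ran from 0.16 without WT 3 to 0.80 without WT 2. Its ubiquitous partner Cox7a2 was at 63.8, 80.0 and 50.8 CPM in WT and 78.6, 75.3 and 62.9 CPM in FOXO3 KO. Cox6b2, the testis form of subunit 6b, had 28, 11 and 16 counts in WT and 20, 19 and 21 counts in FOXO3 KO (log2 fold change 0.32, 95% interval -0.53 to 1.17, from 0.15 without WT 2 to 0.68 without WT 1), beside Cox6b1 at 107, 128 and 86.1 CPM in WT and 131, 119 and 109 CPM in FOXO3 KO. Cox4i2, the lung form of subunit 4, and Cox6c2, annotated as a processed pseudogene, had at most 1 count in any library. Ndufa4l2, a hypoxia-induced relative of Ndufa4, had 4, 1 and 3 counts in WT 1 to 3 and 4, 42 and 17 counts in FOXO3 KO 1 to 3, so that only 2 libraries stood out. The fibroblast markers, at 482 and 169 CPM, and the mesothelial markers, at 40.8 and 16.5 CPM, were highest in the same libraries, FOXO3 KO 2 and FOXO3 KO 3, and their part in the counts of Ndufa4l2 was not tested.

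Complex V makes ATP. Its 19 genes had a median log2 fold change of 0.07, with 15 above 0, and of -0.01 without WT 3, with 9 above 0. Atp5b, the catalytic beta subunit, was at 472, 557 and 424 CPM in WT 1 to 3 and at 539, 507 and 471 CPM in FOXO3 KO 1 to 3 (log2 fold change 0.06, 95% interval -0.31 to 0.43). Atp5g1, Atp5g2 and Atp5g3 encode an identical mature subunit c of the rotor. Not per length, Atp5g3 was at 84.5 to 127 CPM, Atp5g1 at 43.3 to 56.4 CPM and Atp5g2 at 6.93 to 9.49 CPM over the 6 libraries. Per length, with the median length of the protein-coding transcripts, they were at 233, 27.9 and 18.4 TPM in this order. With the length of all exons joined they were at 167, 33.0 and 16.3 TPM. Their log2 fold changes were 0.16, 0.12 and -0.02. Atp5s, a factor related to the synthase, had the lowest log2 fold change of the 104 genes (-0.17, 95% interval -0.67 to 0.33), at 5.22 to 7.44 CPM in WT and at most 5.91 CPM in FOXO3 KO, and was at 0.01 without WT 3.

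**Figure D5:**
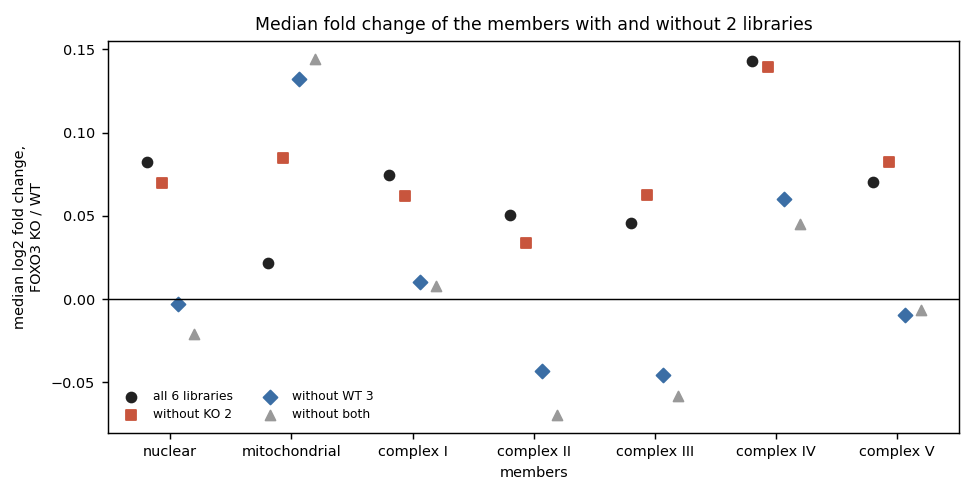
Median log2 fold change of FOXO3 KO over WT for the nuclear genes, the mitochondrial genes and each complex (nuclear and mitochondrial genes together), over all 6 libraries, without the library labelled FOXO3 KO 2, without WT 3 and without both. Medians of the nuclear genes and of complexes I to V drop toward or below 0 without WT 3, from 0.08 to 0.00 for the nuclear genes, while that of the mitochondrial genes moves from 0.02 to 0.13.

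Per length, nuclear genes had a median of 74.8 TPM in complex I, 152 TPM in complex II, 150 TPM in complex III, 231 TPM in complex IV without tissue isoforms and 209 TPM in complex V. Cycs was at 19.8 TPM (16.3 to 22.8). The highest and lowest were Ndufa6 (251 TPM) and the assembly factor Ndufaf6 (4.48 TPM) in complex I, Sdha (193 TPM) and Sdhb (130 TPM) in complex II, Uqcrh (362 TPM) and the Rieske protein Uqcrfs1 (89.9 TPM) in complex III, Cox4i1 (463 TPM) and Cox7b (121 TPM) in complex IV, and Atp5b (392 TPM) and Atp5s (12.4 TPM) in complex V. These used the median length of the protein-coding transcripts. With the length of all exons joined, only Ndufaf6, Uqcrh and Atp5s kept their place, so the order within a complex depends on the length taken. The medians of complexes I to V were then 73.1, 164, 195, 228 and 135 TPM, so the order of the complexes depends on it too.

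Genes that assemble or control the complexes were examined beside them. None of the assembly factors of complex I outside the rule (9 genes), of complex II (4), of complex III (6) and of complex IV (18 tested), of the assembly factors and inhibitor of complex V (4), of the tricarboxylic acid cycle enzymes (14), of the 19 regulators of mitochondrial transcription and biogenesis and of the 78 mitochondrial ribosomal protein genes passed an unadjusted p of 0.05. Of all genes tested, 4.04% passed it with FOXO3 KO higher and 1.65% with FOXO3 KO lower. The median log2 fold changes of these lists were 0.09, 0.03, -0.10, 0.07, -0.01, 0.06, -0.07 and 0.04 in the order given. Of the regulators 7 of 19 (36.8%) were above 0, and of the mitochondrial ribosomal protein genes 51 of 78 (65.4%), against 48.8% of all genes. Without WT 3 these were 9 of 19 (47.4%) and 37 of 78 (47.4%), against 50.7% of all genes. Nrf1 was at 29.996, 31.3 and 33.1 CPM in WT 1 to 3 and at 27.0, 28.6 and 29.892 CPM in FOXO3 KO 1 to 3. The FOXO3 KO libraries were all below the WT libraries, but FOXO3 KO 3 was only just below WT 1. The log2 fold change of Nrf1 was -0.14 (95% interval -0.37 to 0.09). Gabpa was at 77.8, 77.6 and 79.6 CPM in WT and at 79.7, 80.2 and 81.7 CPM in FOXO3 KO, with a log2 fold change of 0.04 (95% interval -0.15 to 0.23).

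Over these 152 genes the groups did not overlap with FOXO3 KO higher for 4 (2.63%), against 7.00% of all genes tested, and with FOXO3 KO lower for 7 (4.61%), against 5.36%. The higher were Cox15, Gabpa, Mrpl35 and Mrps2 and the lower Idh3g, Mrps9, Mrps31, Mterf4, Nrf1, Sdhaf2 and Tfam. Cox15, which takes part in making heme A for complex IV, was at 36.3, 36.5 and 32.5 CPM in WT 1 to 3 and at 39.7, 39.0 and 39.2 CPM in FOXO3 KO 1 to 3 (log2 fold change 0.16, 95% interval -0.05 to 0.38). Cox15, Tfam and Idh3g are described after their values were seen. Tfam, which packages mitochondrial DNA and starts its transcription, was at 33.0, 35.3 and 49.7 CPM in WT 1 to 3 and at 29.7, 32.4 and 30.7 CPM in FOXO3 KO 1 to 3, with a log2 fold change of -0.35 (95% interval -0.76 to 0.07, adjusted p = 0.839, edgeR quasi-likelihood test) and of -0.13 without WT 3. Idh3g, a subunit of the NAD-dependent isocitrate dehydrogenase, was at 73.8, 75.7 and 88.3 CPM in WT and at 63.8, 71.1 and 62.8 CPM in FOXO3 KO, with a log2 fold change of -0.27 (95% interval -0.54 to 0.00, adjusted p = 0.839) and of -0.17 without WT 3.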

How the data were processed

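Paired reads were 76 bp long. The authors deposited estimated counts per gene symbol, without normalization, for 6 libraries. The submitters' processing notes name STAR 2.6.1d, kallisto 0.46.0, DESeq2 and mm10, but not the role of each, and their annotation is not given in the sources used here. The values (81.4% of them whole to within 0.01) were rounded, and the whole counts were used for every test. Values are not whole in 45 of the 107 genes, as arises where reads are shared between features. Positions and lengths are from GENCODE M21 and promoters from RefSeq, both of GRCm38, the assembly named mm10.

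Groups followed the labels. Genes passing filterByExpr (15608) were fitted with edgeR 4.0.16 in R 4.3.3 (TMM, glmQLFit and glmQLFTest, common dispersion 0.103), with Benjamini-Hochberg adjustment over all of them and an FDR of 0.05. The SE was |log2 fold change| divided by the square root of the test statistic. CPM used the TMM-scaled library size, and TPM was computed here. Cycs, Cox6a2 and mt-Nd6, whose groups do not overlap, were also compared by an exact permutation test of CPM (scipy 1.17.1). Tables and plots were made with pandas 2.3.3, numpy 2.4.6 and matplotlib 3.10.9 in Python 3.11.15. Alternatives were the likelihood ratio test, DESeq2 1.42.0, limma-voom (limma 3.58.1), other scaling factors and filters, the replicate number as a block, a covariate for the libraries with high Xist (WT 3 and FOXO3 KO 3), and libraries left out. Fits without the library labelled FOXO3 KO 2 by another tool or with the covariate, and without mitochondrial genes, were added once the data had been examined. The quasi-likelihood test, the likelihood ratio test, DESeq2 and limma-voom were tried on simulated counts with the group as the only factor. The permutation test and the fits with a block, a covariate or libraries left out were not.

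The genes and lists were chosen with earlier results of these data known. Genes were named by a rule: the mitochondrial genes, Sdha to Sdhd, Cyc1 and Cycs, tissue isoforms and their partners, genes with an unadjusted p under 0.05, the 5 largest and lowest log2 fold changes, genes whose groups do not overlap, and the extremes per length. Other genes were chosen after their values were seen. One gene named by this rule is not reported here. Other data of the study were not analysed here.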

Additional observations from a re-analysis of the deposited data

How the results depend on the processing

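No gene of the 104 was called at an FDR of 0.05 in any of the 22 fits run. Over all genes the quasi-likelihood test called 0 of 15608, the likelihood ratio test 109 and DESeq2 129, none of them one of these genes, and limma-voom 0. Without the library labelled FOXO3 KO 2 these numbers were 0, 77, 114 and 0, and 17 with the covariate for Xist, while the fit without that library and WT 3 called 4 (0.0256%). With each library left out in turn, the median log2 fold change ran from 0.0042 to 0.18 over all genes of the pathway, from -0.0026 to 0.21 over the nuclear genes, from -0.035 to 0.13 over the mitochondrial genes, from -0.0093 to 0.18 in complex V, from -0.045 to 0.080 in the assembly factors of complex II, from -0.17 to 0.044 in those of complex III and from 0.00086 to 0.11 in the tricarboxylic acid cycle enzymes. The log2 fold change of Atp5s ran from -0.27 to 0.0052. Without both FOXO3 KO 2 and WT 3, the medians of the nuclear genes and of the assembly factors of complexes II and III were -0.021, -0.061 and 0.051. With the covariate for Xist and without FOXO3 KO 2, the log2 fold change of mt-Nd3 was 0.058. These causes were not tested. Of the 94 other genes tested, 35 changed direction without WT 3, and at most 17 when any other single library was left out. With library size in place of TMM, 74 of 104 genes were above 0 and the median of the mitochondrial genes was -0.01.

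The replicate numbers are shared between the groups, but same-numbered libraries deviated from their group means with correlations of 0.26, -0.07 and 0.52, so they were not taken as pairs. With the replicate number as a block, the median was 0.09, 84 of 104 genes were above 0 and none was called. With the length of all exons joined, mt-Co1 was at 7863 TPM in place of 3622 TPM, because the lengths of nuclear genes grow and those of mitochondrial genes do not. Depth limits the tissue isoforms of complex IV, with at most 64 counts a library.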

Other observations

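Within the mitochondrial transcripts, mt-Co1 took at least 31.9% of the counts of the 13 protein-coding genes in every library. The mitochondrial ribosomal RNAs, mt-Rnr1 and mt-Rnr2, took 0.022% to 0.030% of all counts, and mitochondrial tRNA genes had 16 to 30 counts a library. How ribosomal RNA was removed is not given in the sources used here.

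Ndufs8, a core subunit of complex I that was chosen after its values were seen, had the lowest level of the nuclear core subunits, at 5.01, 5.75 and 4.11 CPM in WT 1 to 3 and 6.13, 4.60 and 3.57 CPM in FOXO3 KO 1 to 3. This is 7.54 TPM, while the other nuclear core subunits were between 52.7 TPM (Ndufv1) and 214 TPM (Ndufs1), with the median length of the protein-coding transcripts. With the length of all exons joined Ndufs8 was at 12.4 TPM and Ndufs1 at 37.4 TPM, so that Ndufs8 was the lowest with both lengths while the levels of the others depend on the length taken. Its estimated counts are not whole numbers, as values are where reads are shared between features.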
